A study of Mus musculus with 32 samples.

Results

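The genes described here encode the contractile filaments of striated muscle, the Z-disc and M-band proteins that hold them, and a few calcium-handling and hormone genes of the heart. They are 40 genes, chosen by name with earlier results of these data known, so counts set beside all genes are no independent test. The 40 were matched by symbol to the Entrez identifiers of the expression files, out of 20612 genes listed in any library. They comprise 11 cardiac filament genes, 9 cardiac calcium, Z-disc and hormone genes, 2 slow skeletal genes, 5 fast skeletal genes, 3 developmental or skeletal actin and myosin genes, and 10 genes shared by striated muscles or expressed more widely.

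The study followed J1 mouse embryonic stem cells (ESCs, strain 129S4/SvJae) as they differentiated under 1 of 4 treatments. These were bisphenols at 100 nM, namely A (BPA), F (BPF) and S (BPS), and a control that received dimethyl sulfoxide (DMSO), the carrier, alone. RNA of each treatment was taken once per stage, at 8 stages, for 32 libraries: day 0 ESCs, embryoid bodies (EBs, clumps of differentiating cells) of days 4, 6, 9, 12 and 20, day 8 EBs given retinoic acid for 4 days (RA EBs), and day 10 neural progenitors (NPCs). The EBs of days 6 to 20 are called global EBs here. All libraries come from 1 cell line and the labels name no replicates, so p-values measure only the spread between these libraries, part of which may be technical. In comparisons of stages, or of treatments over several days, differences in a treatment's effect between days count as spread. In those at a single stage, differences between the bisphenols do. Genes on which the compounds differ can therefore miss a call.

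A sarcomere is built from thin filaments of actin, tropomyosin and troponin that slide along thick filaments of myosin. Heart, slow skeletal and fast skeletal muscle use different members of the same gene families. Embryonic heart and embryonic skeletal muscle share some of them: cardiac actin is made in both, and slow skeletal troponin I is the troponin I of the early heart. EBs are known to form patches of beating heart cells.

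The promoters of Actc1 (cardiac actin), Myl7 (atrial myosin light chain), Tnnt2 (cardiac troponin T) and Myh6 (alpha myosin heavy chain) are shown because these genes carry the pattern described below. Each is the 250 bases before the first start that the RefSeq promoter table lists for the gene on GRCm38.p6, written 5′ to 3′ on the strand of the gene. A gene can have other starts, and the starts used for Tnnt2 and Myh6 lie inside the whole interval of the gene. Which start these cells use was not tested. Capitals mark a CArG box, the site bound by serum response factor; no MEF2 site was found in these windows.
Actc1, chr2:114052876-114053125, minus strand: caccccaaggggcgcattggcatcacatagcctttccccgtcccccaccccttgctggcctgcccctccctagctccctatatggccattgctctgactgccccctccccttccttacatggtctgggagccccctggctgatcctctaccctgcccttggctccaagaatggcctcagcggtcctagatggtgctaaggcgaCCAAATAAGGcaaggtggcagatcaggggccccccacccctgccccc
Myl7, chr11:5898783-5899032, minus strand: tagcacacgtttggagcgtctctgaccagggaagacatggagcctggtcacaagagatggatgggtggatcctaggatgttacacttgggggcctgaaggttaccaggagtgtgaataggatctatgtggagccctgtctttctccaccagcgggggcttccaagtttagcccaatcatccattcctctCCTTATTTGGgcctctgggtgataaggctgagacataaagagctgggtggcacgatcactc
Tnnt2, chr1:135836084-135836333, plus strand: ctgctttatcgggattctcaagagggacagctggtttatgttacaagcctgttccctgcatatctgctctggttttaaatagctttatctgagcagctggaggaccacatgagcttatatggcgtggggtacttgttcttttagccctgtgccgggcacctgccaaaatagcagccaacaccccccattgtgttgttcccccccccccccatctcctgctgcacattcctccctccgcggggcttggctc
Myh6, chr14:54966608-54966857, minus strand: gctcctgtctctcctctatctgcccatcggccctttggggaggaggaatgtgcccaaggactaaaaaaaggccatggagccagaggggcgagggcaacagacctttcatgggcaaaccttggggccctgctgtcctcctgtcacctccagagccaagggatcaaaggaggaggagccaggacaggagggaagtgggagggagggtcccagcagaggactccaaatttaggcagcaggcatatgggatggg
The capitals lie 47 to 38 bases before the start of Actc1 and 61 to 52 bases before that of Myl7. Of the 40 genes, 34 had a promoter in the RefSeq table, and both strands were searched. A CArG box was found in 6 of the 34 (Acta1, Actc1, Ldb3, Myl3, Myl7 and Myom1), or 17.6%, and in 1.4% of 27025 promoters. A MEF2 site was found in 5 (Casq2, Mybpc3, Myh8, Myoz2 and Ttn), or 14.7%, against 3.01% of all promoters. TATAAA occurred in 8 (23.5%, against 13%), and the E-box letters CANNTG in 30 (88.2%, against 66.0%). In Myh8 the MEF2 site and TATAAA overlap. A match describes letters in a window and shows no binding.

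Libraries held 9574833 to 11070149 expected counts and 16326 to 17839 listed genes. Levels are FPKM (fragments scaled to transcript length and library size) and log2 changes are edgeR quasi-likelihood estimates ± SE. Pou5f1, a pluripotency factor, stood at 765 to 855 FPKM in ESCs and 1.13 to 2.47 in NPCs, and Tubb3, a neuronal tubulin, at 1040 to 1103 FPKM in NPCs. Cardiac Tnnt2 was at 0 to 0.09 FPKM in NPCs and 0.25 to 1.23 in ESCs. Calls are made where the p, adjusted by Benjamini-Hochberg across every gene tested, is under 0.05, and between stages also at a log2 change of 1 or more. A filter of 1 CPM (counts scaled to library size) in at least 4 libraries left 34 of the 40 genes in the comparisons of stages, and 33 in those of treatments over global EBs. Casq2, Lmod2, Myoz2, Nppa, Smpx and Tcap did not pass in either, and Nppb did not pass in the second. A gene that passed only through the libraries where it was high had to differ, so counts over these genes do not speak for the 40.

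The 40 genes covered a wide range of levels. Tpm1, a tropomyosin with non-muscle forms as well, reached 719 FPKM. Atp2a2, the calcium pump SERCA2 that many cells use, stayed between 62.3 and 105 FPKM in all libraries. In all 17 genes reached 10 FPKM in some library and 37 reached 1 FPKM. Ryr2, the cardiac calcium release channel, reached 0.76 FPKM, the thin filament regulator Lmod2 0.68 and Ttn, the gene of the giant spring protein titin, 0.22. The library with a gene's highest level was a BPS library for 34 of the 40, a DMSO library for 3, a BPF library for 2 and a BPA library for 1. It lay at EB day 12 for 15 genes and at EB day 20 for 15. Highest libraries were not counted over all genes, so these numbers describe the set alone. In bulk RNA, fewer cells of a type and less RNA per cell cannot be told apart, and that holds for every level here.

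EBs of day 4 were compared with ESCs. Both striated actins, the slow troponins T and C and the tropomyosins were high at day 4 with every treatment, while cardiac troponin T was near 0. Acta1, skeletal muscle actin, stood at 0.26, 0.81, 0.33 and 0.33 FPKM in ESCs and at 275, 276, 245 and 227 FPKM at day 4 (DMSO, BPA, BPF and BPS, the order of library values throughout). All 4 libraries of day 4 lay far above the ESC libraries (log2 change 9.06 ± 0.43, adjusted p = 2.03e-16). Actc1 went from 0.13, 0.13, 0 and 0.06 FPKM to 82.7, 80.3, 76.6 and 71.6 (9.30 ± 0.99, adjusted p = 4.11e-09), again with no overlap. Acta1 made up 76.0% to 77.5% of the summed FPKM of the pair at day 4.

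Thin filament partners accompanied the actins. Tnnc1, the troponin C of heart and slow muscle, went from 0.55, 0.83, 0.28 and 0.96 FPKM to 51.7, 50.9, 47.8 and 52.5 (6.20 ± 0.51, adjusted p = 2.05e-11). Tnnt1, slow skeletal troponin T, was already at 19.6, 19.7, 19.2 and 17.9 FPKM in ESCs and stood at 78.1, 68.8, 80.7 and 68.0 at day 4 (1.95 ± 0.26, adjusted p = 1.56e-07). Neither gene had overlapping stages. Tnnt1 held 99.3% to 99.9% of troponin T FPKM at day 4, where Tnnt2 was at 0.43, 0, 0.17 and 0.09 FPKM. The tropomyosins Tpm1 (635 to 678 FPKM at day 4, log2 change 3.59 ± 0.36) and Tpm2 (38.6 to 43.2 FPKM, 2.62 ± 0.25) rose as well.

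Other genes moved the opposite way. Mylpf, the regulatory light chain of fast skeletal myosin, was at 31.6, 29.9, 28.1 and 30.0 FPKM in ESCs and at 3.88, 3.04, 3.59 and 3.17 at day 4 (-3.08 ± 0.40, adjusted p = 1.73e-07). All ESC libraries were higher, and Mylpf held 62.6% to 68.3% of myosin light chain FPKM there. Myl7 fell from 5.06 to 8.97 FPKM to 0.84 to 2.21 (-2.35 ± 0.79, adjusted p = 0.0108). The other called genes with the smallest p were Myl3 (2.74 ± 0.47), Nexn (2.09 ± 0.39), Ryr2 (-2.36 ± 0.46) and Tnni3 (-2.33 ± 0.47). Of the 34 genes tested 12 rose and 7 fell, against 14.3% and 13.4% of 15632 genes, with a median log2 change of 0.57 against 0 for all genes. Of the smooth muscle genes 9 of 11 were higher at day 4 (median 2.79), with a summed level of 43.0 to 46.9 FPKM in ESCs and 663 to 728 at day 4; their part in the actin and tropomyosin values was not tested.

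**Figure D1:**
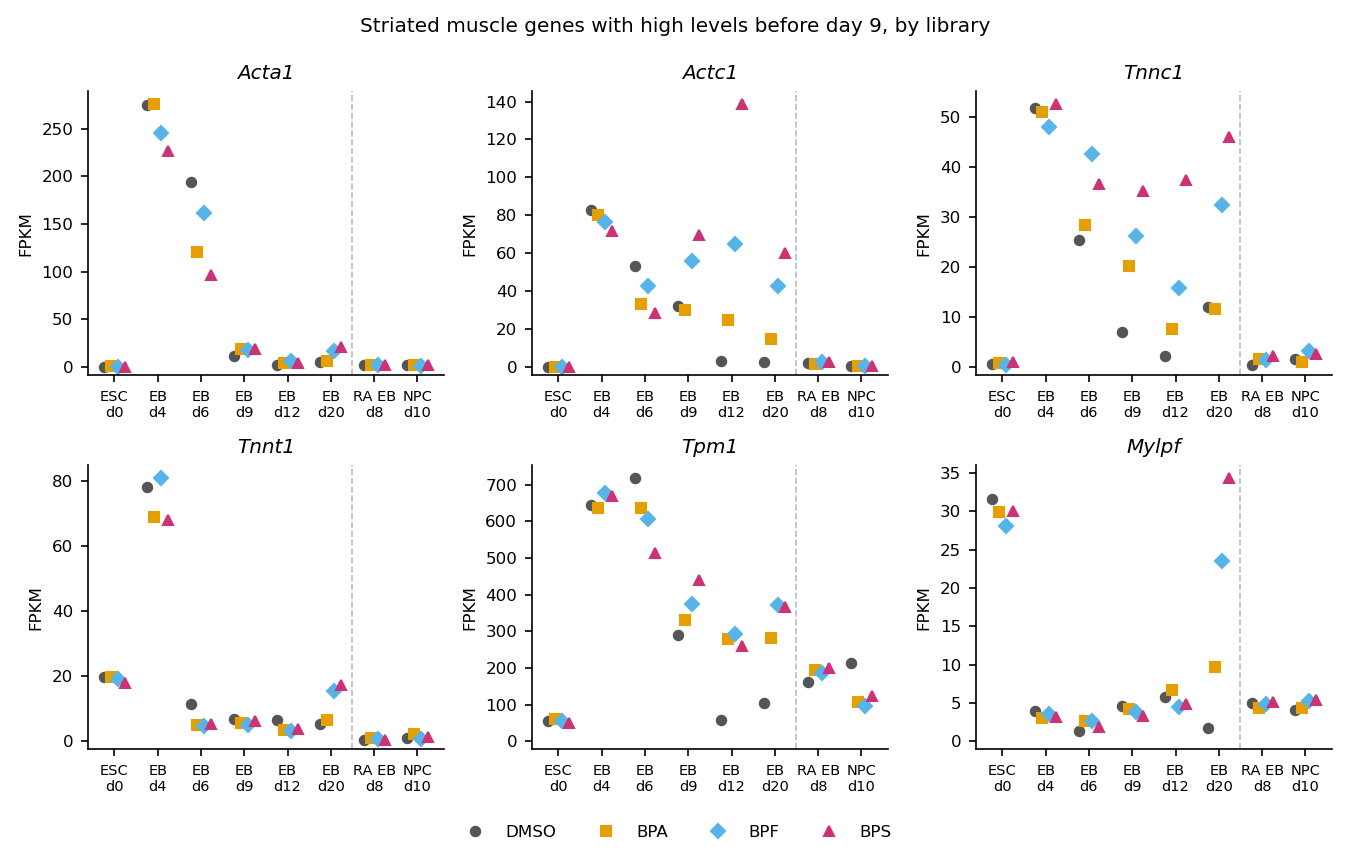
FPKM of 6 genes in all 32 libraries, by stage and treatment (marker and colour); each point is 1 library. Acta1, Actc1, Tnnc1 and Tnnt1 are high at EB day 4 with all 4 treatments, and Mylpf is high in ESCs and again at EB day 20, where the DMSO library is at 1.72 FPKM and the BPS library at 34.4.

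From day 4 to day 6 slow troponin T fell and 2 of 5 fast genes (Myl1 and Tnnt3) rose, at low levels. Tnnt1 fell from 68.0 to 80.7 FPKM to 11.5, 5.06, 4.73 and 5.36 (-3.50 ± 0.28, adjusted p = 4.41e-11), with all libraries of day 6 below those of day 4. Myl1, the essential light chain of fast muscle, was at 0, 0.12, 0.12 and 0 FPKM at day 4 and 0.69, 2.32, 3.87 and 2.93 at day 6 (3.86 ± 0.63). Myl1 reached 1 CPM only in bisphenol libraries of EB days 6 and 20, so its call supports nothing by itself. Tnnt3, fast troponin T, was at 0.10, 0.10, 0.29 and 0.38 and 2.22, 3.09, 2.84 and 2.70 FPKM (3.26 ± 0.41). In all 4 of 34 genes rose and 5 fell (10.5% and 8.55% of all genes). Without the BPF libraries 4 were called in place of 9, and in limma fits, at 4 and 6 calls, most called genes rose.

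Of the 11 cardiac filament genes 5 rose and 0 fell between days 6 and 9, and skeletal actin fell. The summed FPKM of the 11 was 105, 80.5, 112 and 90.2 at day 6 and 56.3, 90.5, 184 and 282 at day 9, lower at day 9 with DMSO and higher with each bisphenol. Acta1 fell from 194, 121, 162 and 96.2 FPKM to 11.7, 18.4, 17.8 and 18.7 (-3.18 ± 0.28, adjusted p = 2.85e-10), with no overlap between the days. Tnni1, slow skeletal troponin I, rose from 0.78, 0.72, 2.14 and 2.60 FPKM to 3.20, 6.34, 21.8 and 32.7 (3.06 ± 0.51, adjusted p = 1.29e-05). The BPF and BPS libraries of day 9 held its high values. Myl7 rose by 2.85 ± 0.66 and Tnnt2 by 3.11 ± 0.78 on the log2 scale. Of 34 genes 12 rose and 2 fell, against 10.5% and 3.86% of all genes, with a median of 0.83 against 0.03. Without BPF 6 genes were called and without BPS 8, in place of 14.

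From day 9 to day 12 the DMSO and the BPF and BPS libraries went different ways. Actc1 was at 32.3, 30.0, 55.9 and 69.8 FPKM at day 9 and at 3.26, 24.5, 64.7 and 139 at day 12. It was lower at day 12 with DMSO and BPA and higher with BPF and BPS. Tnnt2 was at 1.10, 2.20, 15.6 and 25.2 FPKM at day 9 and 0.09, 7.04, 23.4 and 60.7 at day 12, lower with DMSO and higher with each bisphenol. Averaged over treatments, 7 genes rose and 3 fell (7.33% and 2.26% of all genes), among them Myh7, the beta myosin heavy chain of heart and slow muscle, which fell by 1.93 ± 0.44 on the log2 scale. Without BPF, 1 rose and 2 fell; without BPS, 1 rose and 4 fell; without BPA, 6 were called.

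Averaged over treatments, fast and developmental genes rose from day 12 to day 20. The summed FPKM of the 5 fast genes was 8.2, 9.35, 6.94 and 8.3 at day 12. At day 20 it was 4.06, 18.2, 50.2 and 70.1, lower with DMSO and higher with each bisphenol. With DMSO, Mylpf (5.80 to 1.72 FPKM), Tnnc2 (1.30 to 0.15) and Myh3 (0.53 to 0.15) fell, while Tnnt3, Tnni2, Myl1, Myh8 and Acta1 did not. Myh8, perinatal myosin heavy chain, went from 0, 0.05, 0 and 0.03 FPKM to 0.19, 1.43, 2.69 and 3.33 (5.46 ± 0.63, adjusted p = 1.09e-07), and Myl1 from 0.25, 0.12, 0.30 and 0.25 to 0.45, 2.64, 10.9 and 15.7 (4.12 ± 0.55, adjusted p = 8.07e-07). In both every library of day 20 was above every library of day 12. Myh8 reached 1 CPM only in the 4 libraries of EB day 20. It passed the filter only through the stage where it is high, so its p supports nothing by itself. Myl1 reached 1 CPM only in bisphenol libraries of EB days 6 and 20, so the same holds for its p. Of the fast genes 4 of 5 rose, as did all 3 developmental or skeletal genes, and 1 cardiac filament gene (Myl3, 1.30 ± 0.37). Tnni2 and Tnnc2 each reached 1 CPM in 3 libraries of EB day 20 and 1 other library. The count of fast genes therefore supports nothing by itself. Myl7 fell by 2.5 ± 0.58. In all 10 rose and 4 fell, against 17.4% and 8.62% of all genes. Without the DMSO libraries 7 rose and 8 fell; without BPA 8 genes were called, without BPF 7 and without BPS 9.

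**Figure D2:**
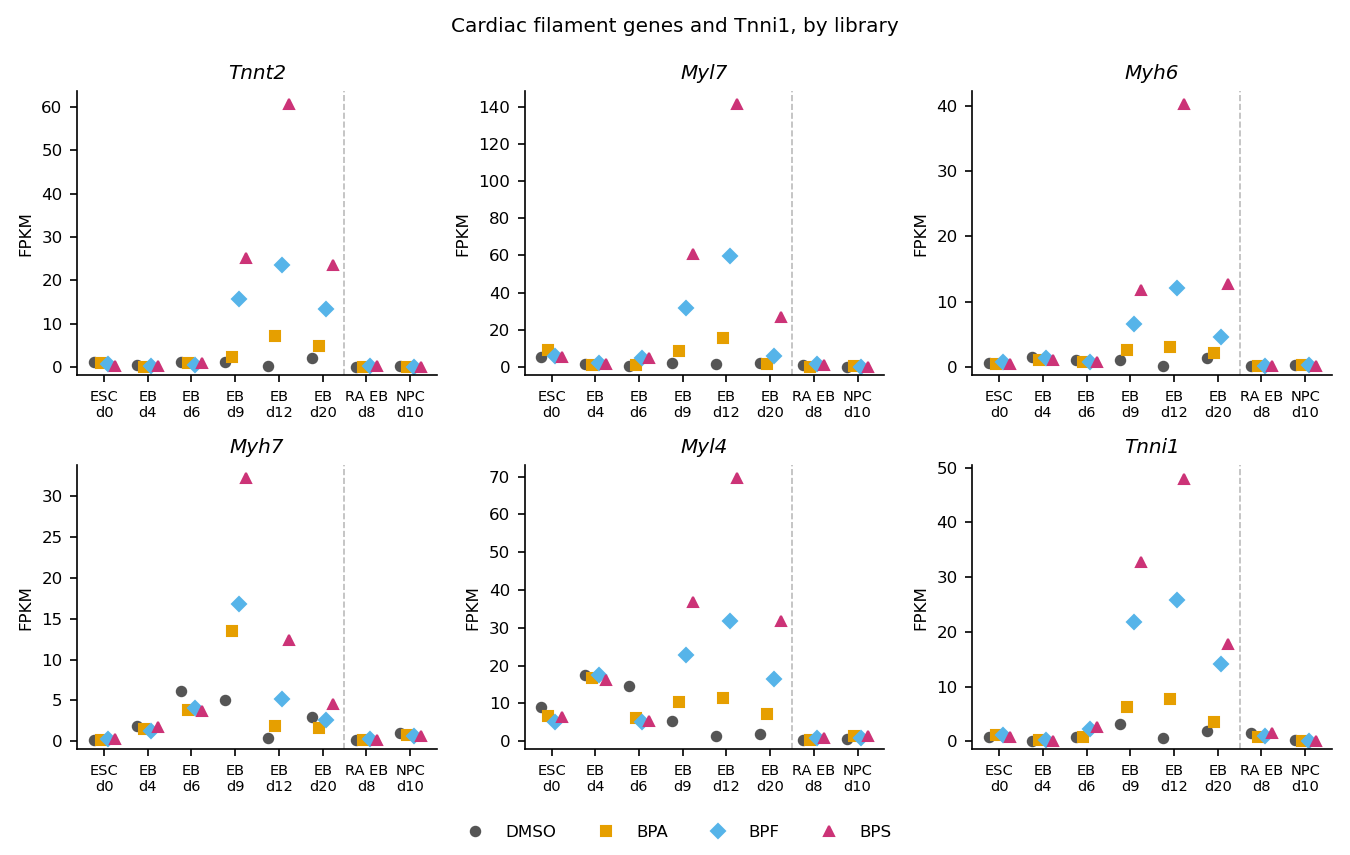
FPKM of cardiac filament genes and Tnni1 in all 32 libraries, by stage and treatment (marker and colour); each point is 1 library. At EB day 12 each gene drawn stands in the order DMSO, BPA, BPF, BPS, and Myl7 runs from 1.55 to 141 FPKM.

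Bisphenol and DMSO libraries were compared over EB days 6, 9, 12 and 20. Of the cardiac filament genes 6 of 11 were higher with bisphenols and 0 lower. Actc1, Myl3, Myl4, Myh7 and Tnni3 did not pass the test. Myl7 stood at 0.49, 0.96, 4.95 and 4.68 FPKM at day 6, at 2.10, 8.55, 31.9 and 60.7 at day 9, at 1.55, 15.7, 59.6 and 141 at day 12, and at 1.83, 1.43, 6.02 and 27.0 at day 20. The DMSO library was the lowest at each of these days except day 20, where BPA was lower (log2 change over the 4 days 3.52 ± 0.40, adjusted p = 0.000102). Tnni1 was higher by 2.70 ± 0.35, adjusted p = 0.000235. Tnnt2 was higher by 3.0 ± 0.65, adjusted p = 0.00681, and Xirp1, an actin-binding protein of the intercalated disc, by 3.17 ± 0.52, adjusted p = 0.00128.

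In all, 12 of 33 genes rose with bisphenols and 0 fell, while 8.67% of 14872 genes rose and 9.06% fell. The median log2 change of the 33 was 1.04 and that of all genes -0.03. The other called genes were Actn2 (alpha-actinin of the Z-disc, 1.93 ± 0.35), Ttn (3.04 ± 0.69), Tnnc1 (1.33 ± 0.31), Myl1 (2.26 ± 0.54), Myh8 (2.60 ± 0.59), Myl2 (ventricular regulatory light chain, 2.26 ± 0.57), Myh6 (2.27 ± 0.67) and Mybpc3 (cardiac myosin-binding protein C, 1.96 ± 0.61). Of these 12 genes, Xirp1, Myl1 and Myl2 reached 1 CPM in no DMSO library and so passed the filter only through bisphenol libraries; a gene that does so had to differ, and its p supports nothing by itself. Myh8 reached 1 CPM only in the 4 libraries of EB day 20. The count of 12 became 19 without day 6, 5 without day 9, 6 without day 12, 3 without BPF and 5 without BPS. Over all 8 stages it was 5.

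At a single stage the 3 bisphenol libraries were set against the 1 DMSO library, which is assumed to vary like the bisphenol libraries. In ESCs and at EB day 4 edgeR called no gene of the set, with 0% and 0.563% of all genes called. None of the 34 had an unadjusted p under 0.05 at either stage, and DESeq2 and limma called none. Acta1 at day 4 had its DMSO library at 275 FPKM, between BPA at 276 and BPF at 245. At day 6 the 1 called gene was Tnnt1, at 11.5, 5.06, 4.73 and 5.36 FPKM, with DMSO above all others (-1.20 ± 0.31, adjusted p = 0.0349), against 1% of all genes lower. That call was lost without BPF (adjusted p = 0.102) and without BPS (adjusted p = 0.0765).

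At day 9 the called genes were Myh7 and Ttn. Myh7 was at 5.0, 13.4, 16.8 and 32.2 FPKM, with DMSO below all bisphenol libraries (2.04 ± 0.57, adjusted p = 0.0254). Ttn had no counts with DMSO and 293 with the bisphenols together, at least 33.1-fold higher against a floor of 3 counts for the DMSO library. Thus 2 of 34 genes were called higher and 0 lower, against 4.01% and 3.48% of all genes. Tnnt2, at 1.10, 2.20, 15.6 and 25.2 FPKM, was not called, and its BPA library lay nearer to DMSO than to BPF. Without BPA 11 genes were called, and without BPS 0.

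At day 12 the DMSO library held little of the heart genes. Tnnt2 was at 0.09, 7.04, 23.4 and 60.7 FPKM, from 1 count with DMSO against 1093 with the bisphenols together (ratio 363, interval 65 to 14300, 95%, for counting error only). Myh6 was at 0.06, 3.03, 12.1 and 40.2 FPKM (7.79 ± 1.63, adjusted p = 0.00118), with all bisphenol libraries above DMSO. Actc1, at 3.26, 24.5, 64.7 and 139 FPKM, was higher by 4.46 ± 0.85, adjusted p = 0.000477. Each of these heart genes had its highest value with BPS and its lowest with DMSO.

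The cardiac light chains followed. Myl7, at the values given above, was higher by 5.35 ± 1.38, adjusted p = 0.00723. Myl4, the embryonic and atrial essential light chain, stood at 1.26, 11.4, 31.9 and 69.5 FPKM (4.74 ± 0.98, adjusted p = 0.00103). Myl3, the ventricular and slow essential light chain, stood at 1.91, 5.34, 10.5 and 24.3 FPKM (2.69 ± 0.70, adjusted p = 0.00757). In all of them DMSO was the lowest and BPS the highest. Myl2 was at 0.16, 0.32, 3.89 and 6.99 FPKM, on 1 count with DMSO against 69 (ratio 22.9, interval 3.98 to 918), and came up with BPF and BPS rather than BPA.

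The other troponins and the Z-disc were read next. Tnnc1 was at 2.18, 7.62, 15.8 and 37.2 FPKM (3.08 ± 0.81, adjusted p = 0.00855) and Tnni1 at 0.58, 7.67, 25.9 and 48.0 (5.36 ± 1.21, adjusted p = 0.00274). In both the groups did not overlap. Csrp3, the muscle LIM protein, was at 0.29, 2.40, 5.51 and 11.8 FPKM, on 3 counts with DMSO against 203 (ratio 22.5, interval 7.58 to 110). Tnni3, the troponin I of the mature heart, at 1.42, 1.06, 2.72 and 6.17 FPKM, was not called (1.11 ± 0.69, adjusted p = 0.292). Atp2a2, at 62.3, 66.0, 79.4 and 94.5 FPKM, was not called either (0.29 ± 0.11, adjusted p = 0.0769).

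By group, 10 of 11 cardiac filament genes were higher at day 12, as were 3 of 5 tested cardiac calcium, Z-disc and hormone genes, 7 of 8 tested shared genes and 1 of 2 slow genes. Of the 5 fast and 3 developmental or skeletal genes edgeR called 0 and 0. Together 21 of 34 rose and 0 fell, against 10.1% and 8.79% of all genes, with a median of 2.79 against -0.05. Ttn (at least 30.5-fold), Xirp1 (at least 13.8-fold) and Pln (phospholamban, the inhibitor of the calcium pump, at least 9.85-fold) had no counts with DMSO. Xirp1, Pln and Myl2 reached 1 CPM in no DMSO library at any stage. They passed the filter only through bisphenol libraries, and a call of such a gene supports nothing by itself. Among the other called genes were Ldb3, a Z-disc protein (3.53 ± 0.74), Myom1, myomesin of the M-band (2.79 ± 0.61), Myh7 (3.91 ± 0.86) and Actn2 (3.68 ± 0.93). Mybpc3 was at 0.07, 0.84, 2.69 and 7.19 FPKM, from 3 counts with DMSO against 457 (ratio 50.6, interval 17.2 to 246). The natriuretic peptide genes, products of heart cells, stayed low: Nppa reached 1.17 FPKM at most, and Nppb had its highest level, 3.81 FPKM, in the DMSO library of NPCs.

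At day 20 fast skeletal genes were high with bisphenols. Mylpf was at 1.72, 9.69, 23.6 and 34.4 FPKM (3.55 ± 0.51, adjusted p = 1.61e-05) and Myl1 at 0.45, 2.64, 10.9 and 15.7 (4.00 ± 0.83, adjusted p = 0.00162). Each bisphenol library was above DMSO in both. Myh3, embryonic myosin heavy chain, was at 0.15, 1.10, 3.66 and 5.33 FPKM (4.24 ± 0.70, adjusted p = 9.28e-05). Myh8 was at 0.19, 1.43, 2.69 and 3.33 FPKM (3.58 ± 0.56, adjusted p = 8.55e-05). Their groups did not overlap either. Myl1 reached 1 CPM in no DMSO library, so its p supports nothing by itself. Myh8 reached 1 CPM only in the 4 libraries of EB day 20.

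The fast troponins stood in the same order. Tnnt3 was at 1.25, 2.17, 6.09 and 7.66 FPKM (2.0 ± 0.56, adjusted p = 0.0134). Tnni2, fast troponin I, was at 0.49, 2.08, 5.37 and 6.07 FPKM, from 3 counts with DMSO against 85 (ratio 9.23, interval 3.05 to 45.6). Tnnc2, fast troponin C, was at 0.15, 1.66, 4.32 and 6.33 FPKM, from 1 count against 82 (ratio 26.7, interval 4.66 to 1070). All 5 fast genes and all 3 developmental or skeletal genes were called, Acta1 among them at 5.51, 6.43, 16.7 and 20.6 FPKM (1.35 ± 0.44, adjusted p = 0.0311). Tnni2 reached 1 CPM in no DMSO library, so its call supports nothing by itself. Tnnc2 reached 1 CPM in 3 libraries of EB day 20 and 1 other library. Myoz2, a Z-disc protein too low to be tested, had no counts with DMSO and was at least 9.34-fold higher.

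Fewer heart genes were called at day 20. Actc1 (2.52, 14.7, 42.9 and 60.1 FPKM, 3.86 ± 0.92) and Myl4 (1.82, 7.15, 16.5 and 31.8 FPKM, 3.20 ± 0.95) were the 2 of 11 cardiac filament genes called. Tnnt2 stood at 2.03, 4.90, 13.4 and 23.5 FPKM without a call (2.66 ± 1.14, adjusted p = 0.104). Myl3 was at 25.3, 14.8, 24.6 and 34.3 FPKM, with DMSO inside the range of the bisphenols. Myom1 was called as well (2.46 ± 0.63). In all 14 of 34 genes were higher and 0 lower, against 9.14% and 10.5% of all genes, with a median of 1.92 against -0.06. Without BPS 9 were called.

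**Figure D3:**
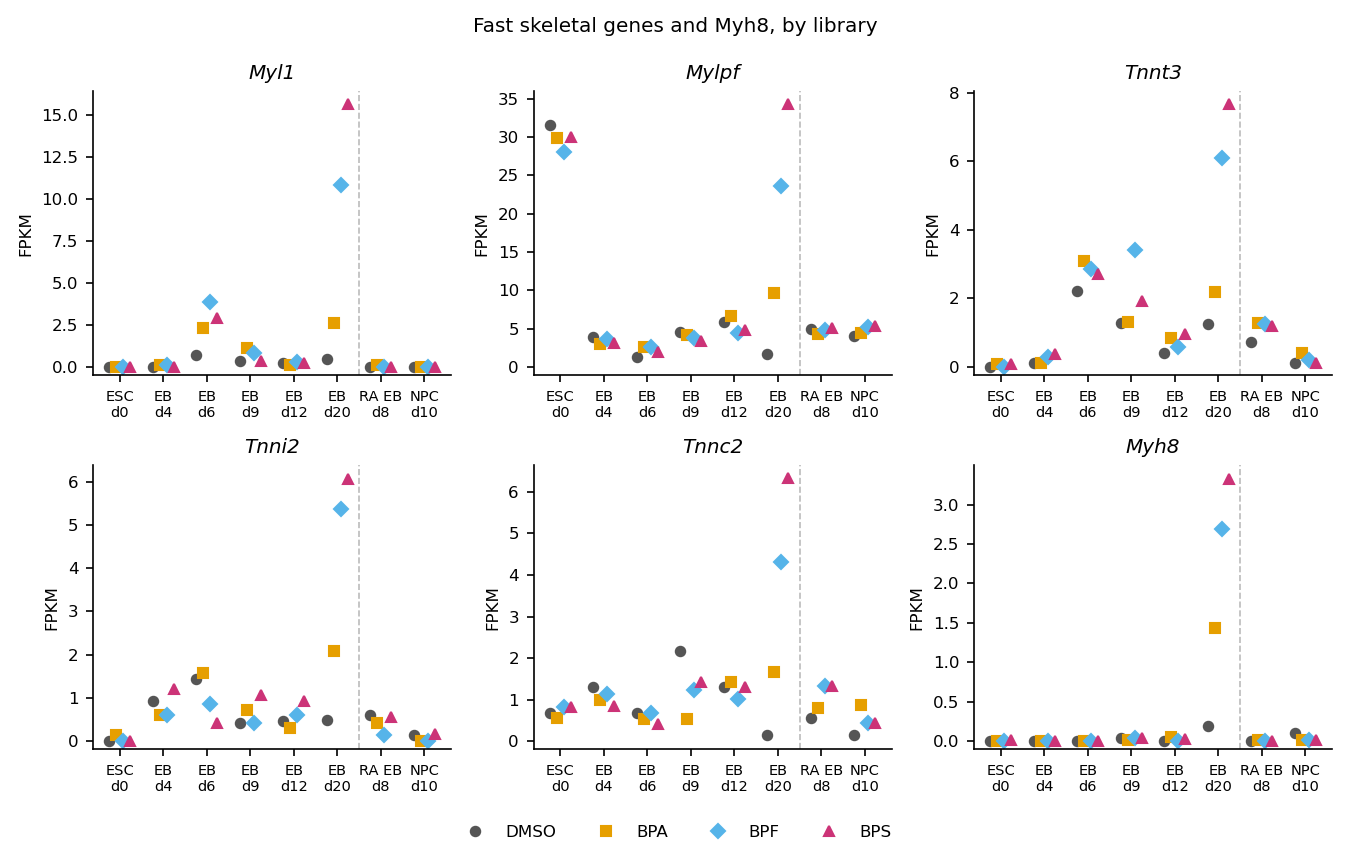
FPKM of the 5 fast skeletal genes and Myh8 in all 32 libraries, by stage and treatment (marker and colour); each point is 1 library. At EB day 20 each gene stands in the order DMSO, BPA, BPF, BPS; the summed level of the 5 fast genes there is 4.06, 18.2, 50.2 and 70.1 FPKM, and at day 12 it is 8.2, 9.35, 6.94 and 8.30.

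Whether the bisphenol difference itself changed between days 12 and 20 was tested in a comparison chosen after the values were seen. It was higher at day 20 for Myh3 (difference of log2 changes 5.82 ± 0.95, adjusted p = 0.000548), Mylpf (3.71 ± 0.69), Tnnc2 (3.83 ± 1.02), Tnnt1 (2.17 ± 0.51) and Tpm2 (1.12 ± 0.25). It was larger at day 12 for Myh7 (-3.97 ± 1.09, adjusted p = 0.0304) and Myl3 (-2.79 ± 0.84, adjusted p = 0.0486). Of all genes 2.66% and 2.9% differed in these directions. At day 12 DMSO was the highest library for Myh3 (0.53, 0.12, 0.17 and 0.23 FPKM) and Tnnt1 (6.56, 3.46, 3.23 and 3.81). Tnnc2 had 1 count with DMSO at day 20, and reached 1 CPM in 3 libraries of that day and 1 other library. Without BPF the total of 7 was 4, with 0 larger at day 12. Without BPA it was 10, with 4 larger at day 20 and 6 at day 12. Tnnt1, lower with bisphenols at day 6 and higher at day 20 (1.25 ± 0.35), differed between those days as well (2.45 ± 0.47, adjusted p = 0.0012), against 4.06% of all genes higher and 3.36% lower.

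**Figure D4:**
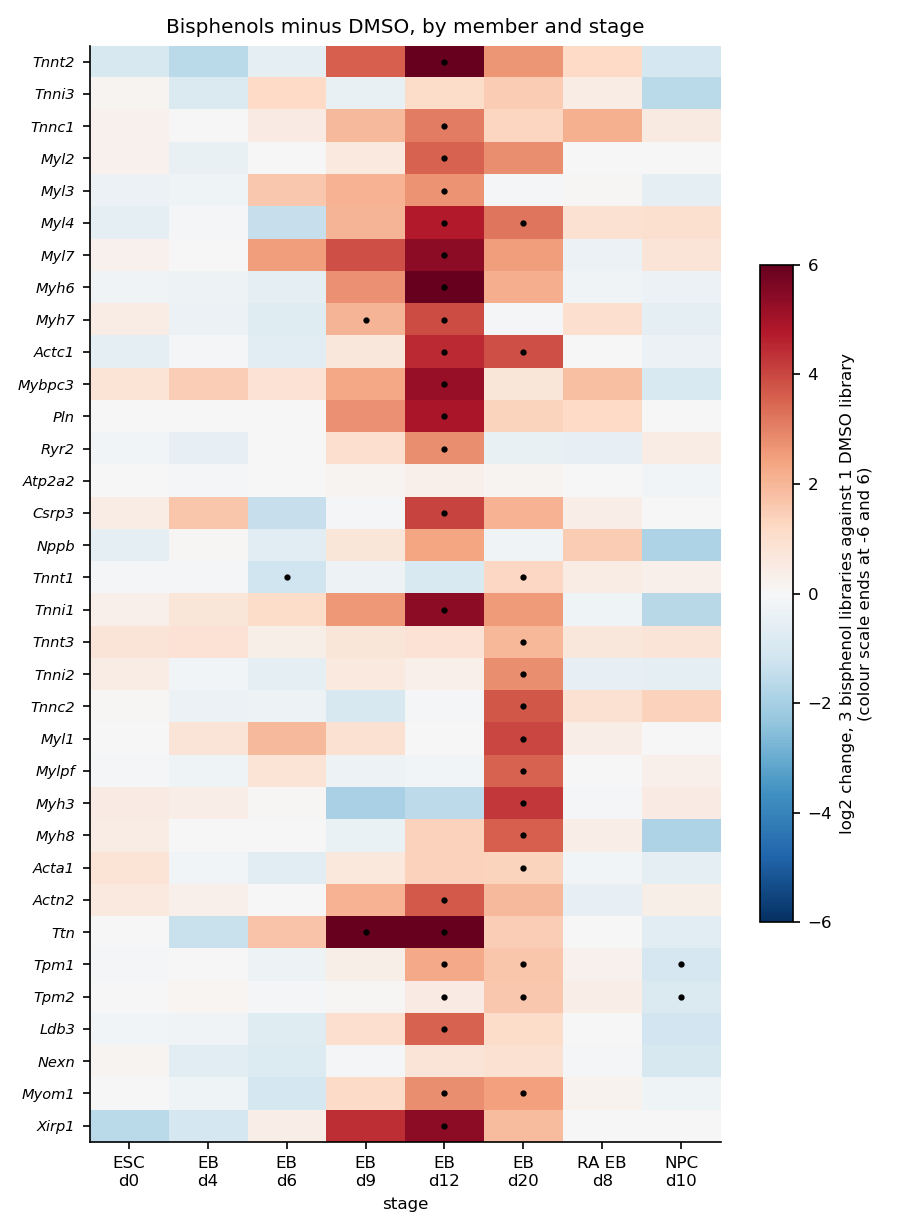
Log2 change of the 3 bisphenol libraries against the DMSO library for the genes tested (rows) at 8 stages (columns); red is higher and blue lower with bisphenols, and a marked cell has an adjusted p under 0.05. The marks of cardiac and shared genes gather at EB day 12 (21 genes in all) and those of fast and developmental genes at EB day 20 (14 genes in all).

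Within gene families the leading isoform differed by day and treatment. At day 12 Tnnt1 held 93.2% of troponin T FPKM with DMSO, while Tnnt2 held 62.1% with BPA, 86.0% with BPF and 92.7% with BPS. At day 20 Tnnt2 held 24%, 36.3%, 38.3% and 48.4% and the fast gene Tnnt3 14.8%, 16.1%, 17.4% and 15.8%. No isoform held as much of the family at day 20 as Tnnt2 did in the BPF and BPS libraries of day 12. Of troponin I, Tnni1 held 84.9% to 88.6% in the bisphenol libraries of day 12, and Tnni3 held 57.7% with DMSO, out of a sum of 2.46 FPKM. Of troponin C, Tnnc1 held 98.8%, 87.5%, 88.2% and 87.9% at day 20. These shares describe single libraries and carry no test.

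The cardiac myosin heavy chains changed places between days 9 and 12 in the bisphenol libraries but not with DMSO. Myh7 held 72.1% to 84.1% of the sum of Myh6 and Myh7 at day 9. At day 12 Myh6 held 62.2%, 69.9% and 76.4% with BPA, BPF and BPS, and 13% of a sum of 0.46 FPKM with DMSO. At day 20 Myh6 held 57.5%, 64.3% and 73.5% with BPA, BPF and BPS, and 32.1% of a sum of 4.3 FPKM with DMSO. Of the striated actins, Actc1 held 66.7%, 85.4%, 91.7% and 97.3% at day 12. Myh6 and Myh7 lie next to each other on chromosome 14 (54941921 to 54968017 and 54970684 to 54994626, GRCm38) and are near-identical in sequence. The expected counts of both, and of Acta1, were fractional in all 32 libraries and those of Actc1 in 13, so how reads were divided between such similar genes is uncertain. The sources used here do not say whether counting used strand, so reads of overlapping genes cannot be told apart either.

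In the neural branch few of these genes were expressed. From EB day 4 to RA EBs 14 of 34 genes fell and 2 rose (15.5% and 18.8% of all genes), with a median of -0.80 against 0.03. Acta1 was at 1.98, 1.42, 1.99 and 1.79 FPKM in RA EBs, below all libraries of EB day 4 (-7.22 ± 0.36, adjusted p = 3.81e-16). Tnnt1 was at 0.49, 0.91, 0.65 and 0.46 FPKM (-6.75 ± 0.38, adjusted p = 4.06e-15). From RA EBs to NPCs 3 genes rose and 4 fell (17.9% and 17% of all genes). Myl3 went from 5.78, 5.66, 6.55 and 5.66 FPKM to 0.68, 0.68, 0.34 and 0.23 (-3.31 ± 0.57, adjusted p = 9.12e-06), with no overlap. Without DMSO 13 genes were called there and without BPA 4, in place of 7.

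In RA EBs edgeR called no gene of the set for bisphenols, against 2.34% of all genes, and 1 of 34 had an unadjusted p under 0.05. DESeq2 and limma called none there. In NPCs both broad tropomyosins were lower with bisphenols, against 1.94% of all genes. Tpm1 was at 214, 106, 94.7 and 124 FPKM (-0.99 ± 0.15, adjusted p = 0.00015) and Tpm2 at 15.7, 7.81, 7.13 and 9.92 (-0.89 ± 0.19, adjusted p = 0.00811). In both the DMSO library stood above all others. Smooth muscle genes summed to 253 FPKM in that library and 87.4 to 151 in the others, with DMSO highest for 11 of 11 genes. Fibroblast and matrix genes summed to 447 FPKM against 181 to 212, with DMSO highest for 10 of 10. The share of all genes with DMSO highest in NPCs was not counted, so these numbers describe the lists alone. The part of these genes in the tropomyosin values was not tested.

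The bisphenol difference in global EBs minus that in the neural branch was tested with an interaction term. Myh8 was the 1 gene called of 34 (3.83 ± 1.05, adjusted p = 0.0299), against 4.8% of all genes higher and 3.99% lower. Myh8 reached 1 CPM only in the 4 libraries of EB day 20, so it passed the filter only through the stage where it is high. It stood at 0, 0.01, 0 and 0 FPKM in RA EBs and 0.10, 0.02, 0.02 and 0.02 in NPCs. The call was lost without BPF and without BPS, and DESeq2 gave an adjusted p of 0.0511.

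The order of the compounds was examined at matched dose and day. The carbon that joins the phenol rings carries methyl groups in BPA and none in BPF, and in BPS a sulfonyl group takes its place. Among genes at 1 FPKM or more in a library of the day, the order DMSO, BPA, BPF, BPS from low to high was seen for 13 of 27 at day 9, 21 of 30 at day 12 and 25 of 34 at day 20. Over all genes at that level it was seen for 10.8%, 11.7% and 8.01%. It was seen for 2 of 15 in ESCs, 0 of 19 at EB day 4 and 0 of 22 at day 6 (6.96%, 5.11% and 6.85% of all genes). In RA EBs it was seen for 0 of 13 and in NPCs for 1 of 11 (4.3% and 4.05%). BPS was the highest of the 4 for 22, 22 and 31 genes at days 9, 12 and 20. The share of all genes with BPS highest was not counted, so these numbers describe the set alone.

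Tpm1 and Tpm2 stood outside that order at day 12. Tpm1 was at 56.7, 279, 292 and 260 FPKM (2.28 ± 0.18, adjusted p = 2e-09) and Tpm2 at 17.9, 34.7, 30.4 and 27.0 (0.51 ± 0.17, adjusted p = 0.0382). For both the bisphenol libraries lay together and above DMSO, with BPS the lowest of them. At day 20 Tpm1 was at 105, 282, 371 and 366 FPKM (1.67 ± 0.17) and Tpm2 at 11.3, 32.8, 44.6 and 49.0 (1.64 ± 0.19). Acta2, smooth muscle actin, was at 11.3, 256, 352 and 211 FPKM at day 12. Whether the bisphenol difference in the tropomyosins differed between EB day 12 and NPCs was tested after the values were seen, and it did for Tpm1 (3.27 ± 0.23, adjusted p = 1.55e-10) and Tpm2 (1.40 ± 0.26, adjusted p = 0.000365), against 8.37% of all genes higher and 6.78% lower.

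Against DMSO over global EBs, with the same 4 DMSO libraries in each comparison, 1 of 33 genes was higher with BPA, 10 with BPF and 17 with BPS. Of all genes 2.31%, 6.57% and 7.91% were higher. No gene of the set was called lower by edgeR, against 1.51%, 5.94% and 6.82% of all genes. The medians of the 33 were 0.48, 1.16 and 1.68, and those of all genes -0.02, -0.03 and -0.04. Myl7 was higher by 1.86 ± 0.47, adjusted p = 0.0457 with BPA, by 3.78 ± 0.43, adjusted p = 0.000204 with BPF and by 4.92 ± 0.41, adjusted p = 5.46e-05 with BPS. Tnni1 was higher by 3.10 ± 0.38 with BPF and 3.69 ± 0.38 with BPS, and Tnnt2 by 3.26 ± 0.70 and 4.20 ± 0.69. Xirp1 was higher by 3.39 ± 0.55 with BPF and 4.48 ± 0.53 with BPS. Of the genes called, Xirp1, Myl1 and Myl2 with BPF, and these and Pln with BPS, reached 1 CPM in no DMSO library. They passed the filter only through bisphenol libraries, so their p supports nothing by itself. The BPA call for Myl7 was lost without day 9 (adjusted p = 0.26) and without day 12 (adjusted p = 0.514). Without day 6 the counts were 2, 19 and 25. Without day 9 they were 0, 5 and 10, and without day 12 they were 0, 4 and 9.

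The compounds were compared with each other in 3 pairs. BPA gave lower levels than BPS for Myl7 (BPA minus BPS -3.06 ± 0.34, adjusted p = 0.00267), Tnni1 (-2.37 ± 0.33, adjusted p = 0.0116) and Xirp1 (-2.83 ± 0.43, adjusted p = 0.0329). They are 3 of 7 genes called in that pair, or 0.0471% of all genes. With p adjusted over the 3 pairs as well, Myl7 (0.00801) and Tnni1 (0.0348) passed and Xirp1 (0.0986) did not. Xirp1 passed the filter only through BPF and BPS libraries, so its p in this pair supports nothing by itself. The number called was 0 without day 9, 1 without day 12, 1 without day 20 and 6 without day 6, and limma called none.

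BPA against BPF and BPF against BPS gave no called gene in edgeR, in the set or among all genes (0% and 0%). BPA minus BPF was negative for 33 of 33 genes (47.5% of all genes), 10 of them at an unadjusted p under 0.05 (4.63% of all genes), and DESeq2 called 2. Its 95% interval was -2.60 to -1.25 for Myl7 and -2.85 to -0.56 for Tnnt2. BPF minus BPS was negative for 31 of 33 (50.7% of all genes), 5 of the 33 at an unadjusted p under 0.05 (1.92% of all genes), and DESeq2 called 0. Its interval was -1.71 to -0.56 for Myl7, -1.16 to -0.02 for Tnni1, -1.93 to 0.04 for Tnnt2 and -1.22 to 0.83 for Mylpf. The genes were measured in the same libraries, so their signs are not independent.

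**Figure D5:**
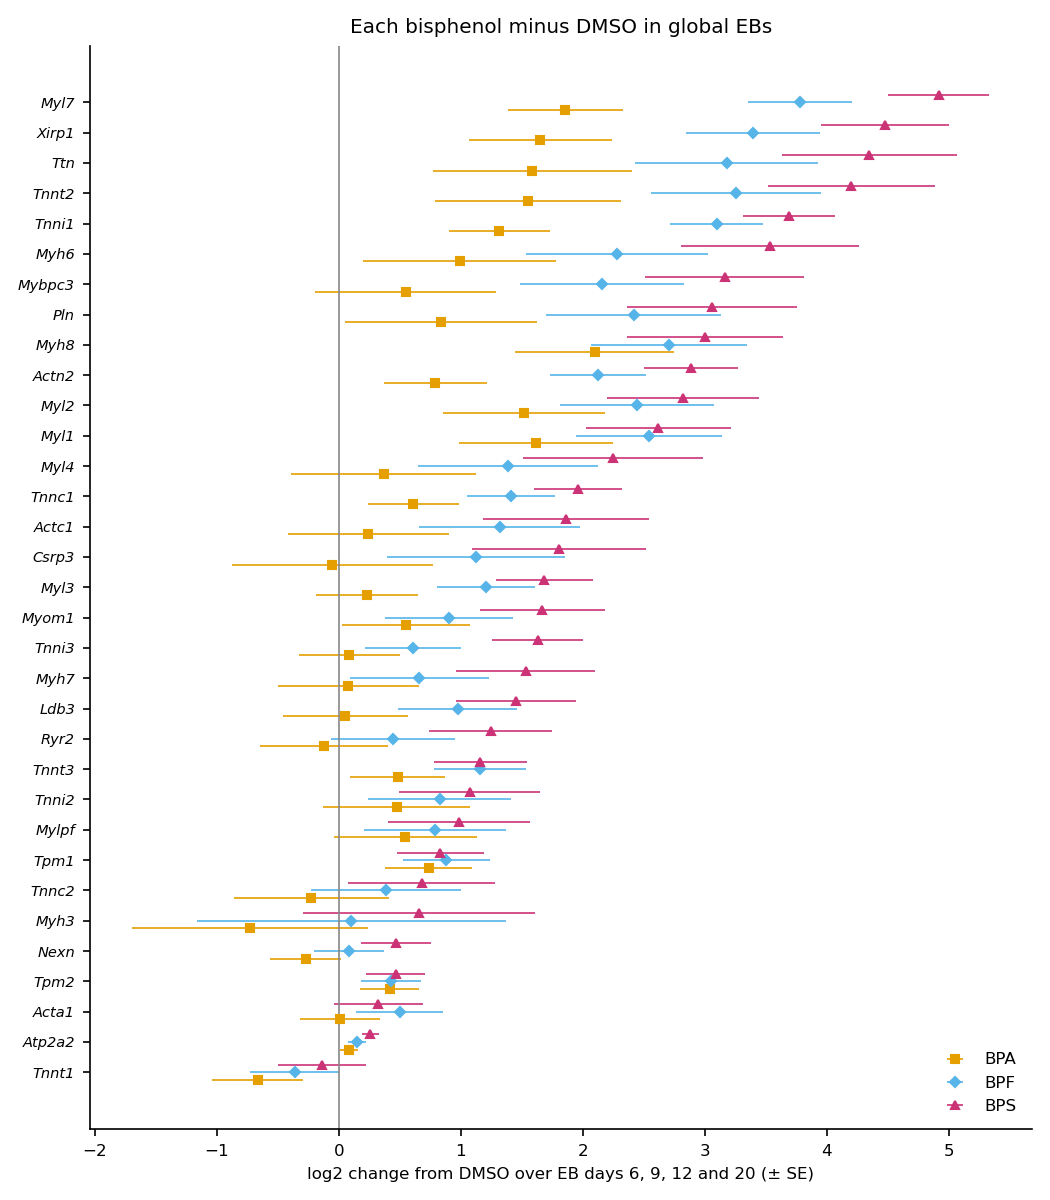
Log2 change from DMSO over EB days 6, 9, 12 and 20, with bars of 1 SE, for each tested gene and compound (marker and colour). Myl7 runs from 1.86 ± 0.47 with BPA to 4.92 ± 0.41 with BPS, and Tnnt1 lies below 0 with all 3; the compounds share the same 4 DMSO libraries.

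Other genes of heart and muscle were read beside the set. Of 16 cardiac transcription factors tested, 10 rose with bisphenols over global EBs, 11 at day 12 and 2 at day 20, and 0 fell at day 12. Of all genes 8.67%, 10.1% and 9.14% were higher in these comparisons, and the share at day 20 lies near that of all genes. Gata4 was at 1.64, 3.42, 6.48 and 11 FPKM at day 12 and Hand2 at 3.57, 5.06, 9.40 and 17.1. The summed FPKM of the list at day 12 was 13.5, 31.1, 54.1 and 86.8, in the same order as the filament genes. Hopx was at 41.0, 74.8, 57.1 and 52.0 FPKM at day 20.

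Of the skeletal myogenic genes 2 of 7 tested were higher with bisphenols at day 20 (Msc, 2.81 ± 0.74, and Chrnd, 2.73 ± 0.95) and 0 lower, against 9.14% and 10.5% of all genes. Over global EBs 0 of 6 were higher and 2 lower, the latter Pax3 (-0.65 ± 0.17) and Pax7 (-1.07 ± 0.20), factors of muscle progenitors and of the neural tube. At day 20 Pax3 was at 2.81, 3.48, 2.82 and 2.40 FPKM and Pax7 at 0.87, 0.24, 0.33 and 0.90, neither called. Myog, a factor of differentiating muscle cells, was at 0.07, 1.43, 5.51 and 6.66 FPKM at day 20 and 0.20, 0, 0.20 and 0.07 at day 12. Mymk, needed for the fusion of muscle cells, was at 0, 1.0, 2.55 and 2.88 FPKM at day 20 and Myod1 at 0.06, 0.50, 2.41 and 1.88. Myf5 was at 0, 0.20, 0.15 and 0.39 FPKM and Myf6 at 0 in all 4 libraries of that day. These 5 genes were too low to be tested, and Myog, Mymk and Myod1 were named after their values were seen. In ESCs, where Mylpf was high, Mymx, a gene of muscle cell fusion, was at 66.8, 67.3, 62.9 and 61.0 FPKM and Myog at 0, 0.06, 0.12 and 0.06.

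Of the sarcomere genes outside the set 4 of 24 tested rose and 1 fell with bisphenols over global EBs, and at day 20 10 of 27 rose and 1 fell. Of all genes 8.67% rose and 9.06% fell over global EBs, and 9.14% and 10.5% at day 20. Des, the muscle intermediate filament desmin, was at 1.80, 6.83, 11.6 and 17.2 FPKM at day 20 (2.64 ± 0.40), with DMSO the lowest. Of the calcium and excitation genes 6 of 15 rose at day 12, and of the muscle energy genes 3 of 8, against 10.1% of all genes. At day 20 the calcium and excitation genes summed to 33.1, 41.3, 44.1 and 47.7 FPKM. The muscle energy genes summed to 119, 95.7, 114 and 125 FPKM at that day, with DMSO inside the range of the bisphenols.

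Markers of other cell types moved in the same libraries. At day 12 11 of 11 smooth muscle genes, 10 of 10 fibroblast and matrix genes, 6 of 8 endothelial genes and 2 of 5 endoderm and liver genes were higher with bisphenols. There 6 of 10 neuronal and 7 of 7 neural progenitor genes were lower. Of all genes 10.1% were higher and 8.79% lower at that day. Smooth muscle genes summed to 85.8 FPKM with DMSO and 472 to 756 with bisphenols, and fibroblast and matrix genes to 41.1 against 495 to 532. Endothelial genes summed to 4.02 FPKM against 15.2 to 34.1, and neural progenitor genes to 1007 against 643 to 747. At day 20 smooth muscle genes summed to 159 FPKM against 637 to 916, and fibroblast and matrix genes to 151 against 1332 to 1495. The part of these cell types in the striated muscle values was not tested. Each day has 1 DMSO library, so at a single day the treatment and that culture cannot be told apart.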

How the data were processed

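The authors deposited, for each library, a table of genes by Entrez identifier with an expected count and an FPKM value; Bowtie2, HISAT, RSEM and the mm10 build are named in the submitters' processing notes, without versions or roles, so which tool made which value is not given in the sources used here. Genes not listed in a library were set to 0. Expected counts were rounded and tested with edgeR 4.0.16 (quasi-likelihood, TMM, prior count 1) in R 4.3.3, on genes with 1 CPM or more in at least 4 of the libraries fitted. Terms were stage and treatment (32 libraries for stages, 16 global EB libraries for treatments), stage by class (DMSO or bisphenol, 32 libraries), and class by branch (24 libraries). P-values were adjusted over all genes tested. FPKM values served for levels, orders and shares. Alternatives were DESeq2 1.42.0, limma 3.58.1 on log2(FPKM + 1) and log2(FPKM + 0.1), other size factors, other filters, and leaving out a treatment or day. Python 3.11.15 was used for tables and figures. The scripts were tested on simulated data.

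The members and lists were chosen with earlier results of these data known. Values per library are given for members that reach 10 FPKM and for the isoform families. Called members are named in order of p, up to 12. Outside the members up to 3 genes per list are named, those of highest mean FPKM, unless said otherwise. From the skeletal myogenic list more than 3 genes are named, not all of them by that rule. The differences of the bisphenol effect between EB days 20 and 12, EB day 12 and NPCs, and EB days 20 and 6 were added after seeing the data. Libraries differ little in depth, and intervals of ratios cover counting error only.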

Additional observations from a re-analysis of the deposited data

Results flagged for a closer look

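The results here are differences of the bisphenol effect between stages or branches, each on the log2 scale and each past an adjusted p of 0.05 in edgeR; those between single stages were chosen after the data were seen. Myh8 had a larger effect in global EBs than in the neural branch, by 3.83 ± 1.05. It passed the filter only through the 4 libraries of EB day 20, the call was lost without BPF and without BPS, and DESeq2 gave an adjusted p of 0.0511. Tpm1 and Tpm2 had a higher effect at EB day 12 than in NPCs, by 3.27 ± 0.23 and 1.40 ± 0.26: the bisphenol libraries lay above DMSO at day 12 and below it in NPCs. Tnnt1 had a higher effect at EB day 20 than at day 6, by 2.45 ± 0.47, adjusted p = 0.0012 (4.06% of all genes). Between EB days 20 and 12 the effect was higher at day 20 for Myh3 (5.82 ± 0.95), Mylpf (3.71 ± 0.69), Tnnc2 (3.83 ± 1.02), Tnnt1 (2.17 ± 0.51) and Tpm2 (1.12 ± 0.25). It was lower at day 20 for Myh7 (-3.97 ± 1.09) and Myl3 (-2.79 ± 0.84). At day 12 the DMSO library was the highest for Myh3 and Tnnt1, and at day 20 Tnnc2 had 1 count with DMSO.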

How the results depend on the processing

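The labels give no replicate numbers, so no fit with such a number as a block was made; the comparisons of treatments had stage as a term, and those of stages treatment. Of 234 counts of called genes under alternatives, over 24 comparisons, 163 were within 1.5 times the main count, 64 were beyond it and 7 turned the direction of the majority. Of 1799 values of named genes 1511 kept direction and side of the threshold, 288 kept direction and lost the call, and 0 reversed. With a filter of 5 CPM the calls were 5 for EB day 12 against 9, 8 for day 20 against 12, 0, 6 and 11 for BPA, BPF and BPS against DMSO, 8 for bisphenols at day 20 and 0 for the branches. Without a filter bisphenols at day 9 gave 4. DESeq2 gave 12 for NPCs against RA EBs, 2 for BPA against BPF and 5 for BPA against BPS. Over all 8 stages bisphenols gave 5.

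limma on log2(FPKM + 1) gave 10 for EB day 4 against ESCs, 4 for day 6 against 4 (majority turned), 6 for day 9 against 6, 4 for day 12 against 9, 9 for day 20 against 12, 10 for RA EBs and 2 for NPCs. For BPF it gave 4, for bisphenols at day 9 1, and for BPA, BPA against BPS, bisphenols at day 6 and the branches 0 each. On log2(FPKM + 0.1) it gave 6 for day 6 against 4 and 5 for day 12 against 9 (majority turned in both), 11 for NPCs, 5 for BPF, and 0 for BPA, BPA against BPS and bisphenols at days 6 and 9.

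Leaving out 1 treatment or day gave 15 to 20 calls for EB day 4 against ESCs, 4 to 13 for day 6 against 4, 6 to 18 for day 9 against 6, 3 to 13 for day 12 against 9 (majority turned at 3 without BPF and 5 without BPS), 7 to 15 for day 20 against 12 (turned at 15 without DMSO), 14 to 17 for RA EBs and 4 to 13 for NPCs. It gave 3 to 19 for bisphenols, 0 to 2 for BPA, 4 to 19 for BPF, 9 to 25 for BPS, 0 to 6 for BPA against BPS, 0 to 1, 0 to 11, 17 to 21 and 9 to 17 for bisphenols at days 6, 9, 12 and 20, 0 to 1 for the branches, and 4 to 10 for day 20 minus day 12 (turned at 10 without BPA). The causes were not tested. Genes at a few counts in DMSO libraries limit the precision of their ratios.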
